A study of Homo sapiens with 4 samples.

Results

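Transcripts of the proteasome were followed in SW1990 cells, an established human pancreatic cancer line, after exposure to erianin. The genes were chosen by name: protein-coding genes of the count table whose symbols begin with PSMA, PSMB, PSMC, PSMD, PSME, PSMF or PSMG, together with POMP, ADRM1 and SEM1. There were 51 of them among 25798 gene IDs, after 16 pseudogenes and noncoding RNAs with matching symbols were left out, and all 51 passed the filter on low counts. RNA was sequenced from 2 libraries of cells given 100 nM erianin for 48 h and from 2 libraries of cells given DMSO, the solvent, for the same 48 h. All 4 libraries came from cells labelled wild type, and erianin was the only agent that differed between them. Erianin is a bibenzyl from Dendrobium orchids known to bind tubulin, and AKT and ASK1 are given in the title of the study as its targets. No label states that replicates were separate cultures. The p-values therefore reflect the scatter of these 4 libraries and nothing wider, and that scatter may be technical. The line is a single cancer line grown in culture, so no other cell type or donor was compared.

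The proteasome is the cell's main machine for degrading proteins tagged with ubiquitin. Its barrel-shaped 20S core is built from alpha rings, which gate the entry, and beta rings, of which PSMB5, PSMB6 and PSMB7 carry the catalytic sites. The 19S cap recognises and unfolds substrates through an ATPase ring and a set of non-ATPase subunits, other activators open the core without it, and dedicated chaperones assemble both. Cells that lose proteasome activity are known to raise nearly all subunit genes together through NFE2L1, which reads antioxidant response elements in their promoters. Proteasome inhibitors are drugs of myeloma and have been tried against pancreatic cancer.

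The bases just upstream of 5 of the genes are shown because the fold changes below turn on PSMD1, PSMF1 and PSMC6, because PSMB5 is the catalytic subunit that proteasome inhibitors bind, and because PSMA5 had the most response element cores. They were read 5' to 3' on the gene's strand from the RefSeq promoter windows (build GRCh38.p14), and bases inside annotated exons were left off. Capitals mark a match on either strand to 1 of 4 motifs, which are the antioxidant response element core TGANNNNGC, the CCAAT box CCAAT, the ETS core CCGGAAG and the GC box GGGCGG.
PSMD1, chr2:231056617-231056863, plus strand: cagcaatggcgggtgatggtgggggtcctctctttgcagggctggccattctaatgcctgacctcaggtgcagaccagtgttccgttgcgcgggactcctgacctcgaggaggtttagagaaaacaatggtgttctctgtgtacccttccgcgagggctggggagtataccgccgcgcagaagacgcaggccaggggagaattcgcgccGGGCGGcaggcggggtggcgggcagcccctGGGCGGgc
PSMF1, chr20:1113013-1113262, plus strand: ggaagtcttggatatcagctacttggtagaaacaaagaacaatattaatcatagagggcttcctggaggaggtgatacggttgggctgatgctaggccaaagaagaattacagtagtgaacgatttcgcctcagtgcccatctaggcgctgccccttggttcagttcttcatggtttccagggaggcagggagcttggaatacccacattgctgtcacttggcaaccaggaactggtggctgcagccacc
PSMB5, chr14:23035231-23035470, minus strand: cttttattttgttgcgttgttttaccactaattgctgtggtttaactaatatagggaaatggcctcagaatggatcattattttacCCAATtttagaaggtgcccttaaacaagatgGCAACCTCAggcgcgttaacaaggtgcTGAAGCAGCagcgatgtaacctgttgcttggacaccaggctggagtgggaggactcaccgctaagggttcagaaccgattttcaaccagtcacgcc
PSMA5, chr1:109426449-109426698, minus strand: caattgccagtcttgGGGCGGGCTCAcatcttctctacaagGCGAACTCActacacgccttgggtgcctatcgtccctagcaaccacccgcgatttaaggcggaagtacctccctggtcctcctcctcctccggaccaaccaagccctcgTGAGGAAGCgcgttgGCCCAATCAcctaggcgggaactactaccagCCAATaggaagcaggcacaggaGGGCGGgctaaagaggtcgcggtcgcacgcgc
PSMC6, chr14:52706950-52707171, plus strand: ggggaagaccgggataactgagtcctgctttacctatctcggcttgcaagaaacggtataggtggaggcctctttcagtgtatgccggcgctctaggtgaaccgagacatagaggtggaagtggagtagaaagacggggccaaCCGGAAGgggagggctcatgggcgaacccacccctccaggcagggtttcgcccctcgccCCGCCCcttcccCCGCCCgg
PSMF1 held none of the 4 motifs in the letters shown. PSMB5 held 2 response element cores, which began 133 and 106 bases before the RefSeq start, and a CCAAT box at 164 bases. PSMA5 held 4 cores in the letters shown, of which 1 overlapped a GC box and 1 overlapped a CCAAT box. Its full window, which runs to 50 bases after the start, held 5 cores. PSMC6 held an ETS core 107 bases before its start and 2 GC boxes. PSMD1 held 2 GC boxes in the letters shown. The full window of PSMD1 held 3 GC boxes and 2 response element cores. The windows of PSMC2 and PSMD10 lie in large part within annotated exons and are not printed.

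The 4 libraries were of like depth, with 59923935 to 63336545 counts each, and the second erianin library stood apart. Among the 51 proteasome genes it held the highest level in 28 and the lowest in 20, and in 35 it lay farther from the nearest library than the other 3 libraries lay from each other. The same was so of 49.4% of 7977 genes whose mean log2 CPM reached 3. The second erianin library was the highest or lowest in 94.1% of the 51 genes, against 83.2% of the 7977. The first erianin library was the highest in 1 proteasome gene and the lowest in 7 (15.7%, against 25.7%). It lay that far out in 0, against 4.25% of the 7977. The first DMSO library was the highest in 18 and the lowest in 19 (72.5%, against 57.5%). It lay that far out in 5 (9.80%, against 7.71%). Markers of other cell types were low: 6 fibroblast markers summed to 40.2 CPM, counts scaled to library size, in the first DMSO library and to 11.2 to 13.7 in the others, while 6 epithelial markers summed to 12693 to 13864. Of the blood and endothelial markers, CD3E and CDH5 were not in the table, and the summed level stayed between 0.132 and 0.743 CPM and between 0.632 and 1.2 CPM.

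The proteasome took up a similar share of the transcriptome in the 4 libraries. Under DMSO its 51 genes held 0.784% and 0.791% of the counts, and under erianin 0.776% and 0.780%. In FPKM, which divides by transcript length and so allows genes to be compared, they held 0.837% and 0.849% under DMSO and 0.830% and 0.798% under erianin. On each scale both erianin shares lay below both DMSO shares, a small difference that was not tested. These shares divide by plain totals, and their order depends on that scaling. The TMM factors that adjust the totals for CPM were 1.04 and 1.03 under DMSO and 1.01 and 0.928 under erianin. The median log2 fold change of the 51 genes was -0.054 with library totals alone and 0.049 with TMM factors. Levels per length were far from equal within one particle. The constitutive beta subunits had the highest level, with a median per library of 251 to 277 FPKM, led by PSMB6 (389.8, 419.8, 402 and 408 FPKM, in the order DMSO 1, DMSO 2, erianin 1 and erianin 2) and PSMB3 (364, 404, 398 and 405 FPKM). The alpha subunits had medians of 55.0 to 67.9 FPKM, the 19S ATPases 41.1 to 49.4 FPKM and the non-ATPases 48.2 to 52.4 FPKM. Within each class the highest and lowest gene differed widely, by 7.56-fold among the beta subunits, 13.6-fold among the alpha subunits and 26.6-fold among the ATPases. ADRM1, the ubiquitin receptor that docks the deubiquitinase UCHL5 on the 19S cap, was the most abundant of all genes considered (mean of 443 FPKM over the 4 libraries), and PSME4, an activator with a role in chromatin, was the least abundant at 1.35 FPKM. These are summed over all rows of a gene, and differences in annotated length between rows enter them. The plot of FPKM by role shows the order of the genes and how closely the libraries lie.

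**Figure D1:**
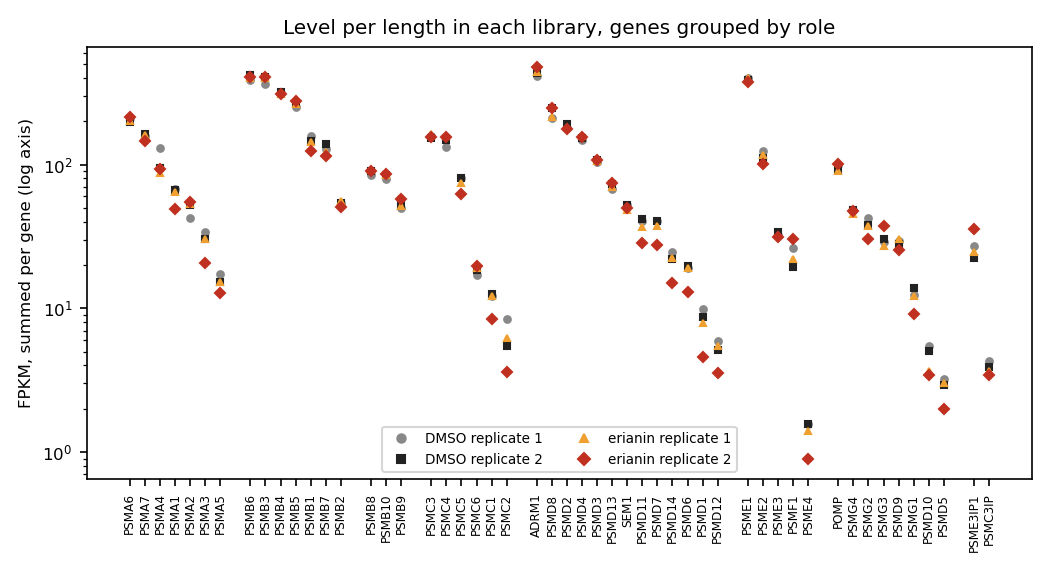
FPKM of each proteasome gene, summed over its rows, on a log axis, with genes grouped by role and ordered by mean level; each point is 1 library. The beta subunits PSMB6 and PSMB3, ADRM1 and the activator PSME1 lie highest, PSME4 lies lowest, and the second erianin library (red diamonds) lies below the others at many of the low genes.

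The comparison of erianin with DMSO asked whether proteasome transcripts differ after the compound. No proteasome gene passed the test. In edgeR's quasi-likelihood test with Benjamini-Hochberg adjustment, 0 of 51 had an adjusted p under 0.05, where 0.041% of the 17090 genes tested (7 genes) did. At an unadjusted p under 0.05 there were 4, namely PSMC2, PSMD1 and PSMD10 with lower values and PSMF1 with higher values under erianin, where 8.1% of all genes tested reached that level, a share near that of the members. DESeq2, limma-voom and limma on FPKM each called 0 of the 51, where they called 21, 0 and 2 of 17090 genes. At an unadjusted p under 0.05 they had 5, 5 and 2 of the 51, with the share over all genes not given here. The fitted log2 fold changes ran from -0.49 to 0.31, with a median of 0.049 (-0.012 over all genes tested, and 0.042 over those whose mean log2 CPM reached 3). They were above 0 in 30 genes and below 0 in 21. Both erianin libraries lay above both DMSO libraries in 10 genes and below both in 12, where 21.7% and 24.4% of all genes did so, again near the members' shares. In these bulk libraries, fewer cells with a transcript and less of it in each cell cannot be told apart.

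The intervals reflect the scatter of these libraries, which may be technical, so they do not bound what separate cultures would show. In the main fit every difference was within 1.5-fold. The 95% interval lay wholly within 1.5-fold for 40 of 51 genes and within 2-fold for all 51. For PSMB5, the interval ran from -0.10 to 0.40 on the log2 scale, or 0.930-fold to 1.32-fold. These shares are near those of other genes at a like level. Of the 7977 genes whose mean log2 CPM reached 3, as it did in 49 of the 51, the fitted difference was within 1.5-fold in 98.3%, and the interval lay within 1.5-fold in 70.5% and within 2-fold in 96.7%. Some other settings gave larger values. PSMA2 was at 0.59 on the log2 scale with the trend in GC content and length removed. By the row with the most counts, PSMA4, PSMD1 and PSMC3 were at 1.10, -0.87 and -0.63. The plot of fold changes by role shows the intervals of the main fit.

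**Figure D2:**
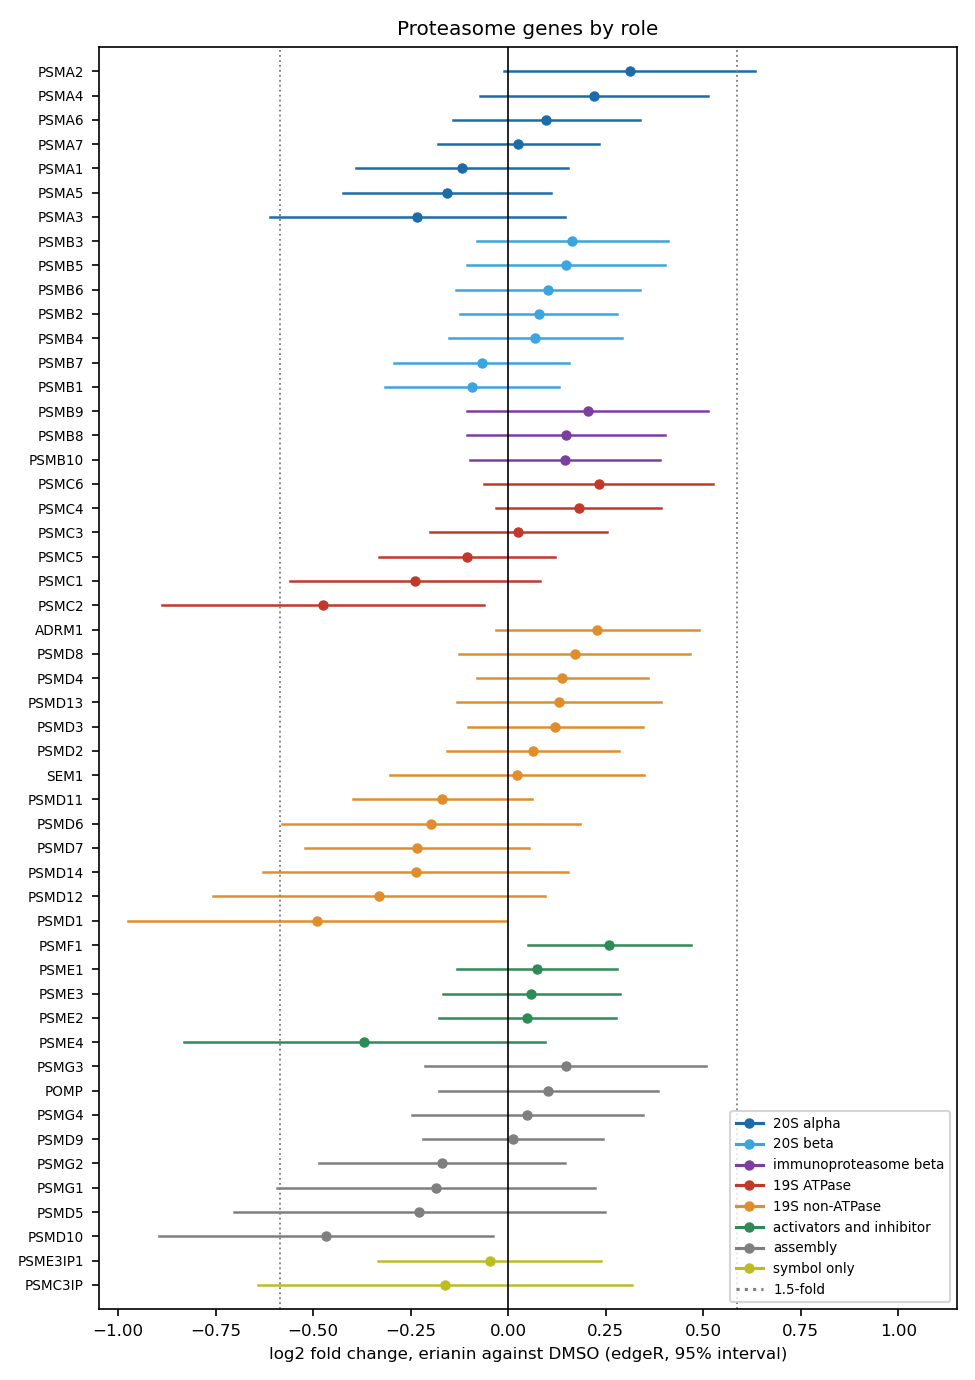
Log2 fold change of erianin against DMSO for each proteasome gene (points) with the 95% interval of edgeR's fit (lines), coloured by role; dotted lines stand at 1.5-fold in either direction. All 51 points lie between the dotted lines, and the intervals of PSMC2, PSMD1, PSMD10 and PSMF1 leave out 0 before adjustment.

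Of the constitutive beta subunits, 0 of 7 passed and fitted values were above 0 in 5 and below 0 in 2, with a median of 0.077. PSMB5, with the chymotrypsin-like site, had 286 and 312 CPM under DMSO and 305 and 358 CPM under erianin. The groups overlapped, and only the second erianin library stood above both controls (log2 fold change 0.15, SE 0.11, adjusted p = 0.63). PSMB6, with the caspase-like site, had 361 and 390.2 CPM under DMSO and 379 and 427 CPM under erianin (log2 fold change 0.10, SE 0.10). PSMB7, with the trypsin-like site, had 140.3 and 153 CPM against 137 and 143 CPM (-0.069, SE 0.097). Neither of those pairs of groups separated either. PSMB3, a structural subunit, had the highest fold change of the class, with 306 and 341 CPM under DMSO and 340.3 and 384 CPM under erianin (0.16, SE 0.11). PSMB1, also structural, had the lowest, with 159 and 146 CPM against 146 and 141 CPM (-0.093, SE 0.096), its erianin values lying just below its controls.

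The immunoproteasome subunits PSMB8, PSMB9 and PSMB10 replace the catalytic beta subunits in cells that present antigen and are known to respond to interferon. All 3 had fitted values above 0 and 0 of 3 passed. PSMB8 had 114 and 122 CPM under DMSO and 121 and 141 CPM under erianin (log2 fold change 0.15, SE 0.11). For PSMB9 the values were 57.5 and 61.4 CPM against 60.8 and 76.1 CPM (0.20, SE 0.13), and for PSMB10 they were 86.3 and 92.7 CPM against 93.4 and 105 CPM (0.15, SE 0.11). In PSMB8 and PSMB9 the first erianin library lay within the DMSO range. In PSMB10 both erianin libraries lay above both controls, the first by under 1 CPM. Set against the subunit it replaces, on the FPKM scale, PSMB8 stood at 0.338, 0.337, 0.348 and 0.326 of PSMB5 in the order given above. PSMB9 stood at 0.127, 0.125, 0.129 and 0.142 of PSMB6. PSMB10 stood at 0.618 and 0.607 of PSMB7 under DMSO and at 0.688 and 0.747 under erianin. The groups of the PSMB9 and PSMB10 ratios did not overlap, and those of the PSMB8 ratio did. In CPM, 21.7% of all genes tested had both erianin libraries above both DMSO libraries and 24.4% had both below. Those are shares of single genes, and how often ratios between genes separate in FPKM is not given here. With the trend in GC content and length removed, as described below, PSMB10 and PSMB7 had fold changes of -0.074 and -0.13. PSMB9 and PSMB6 had 0.30 and -0.070. With 2 libraries against 2, a two-sided exact permutation test of a single ratio cannot go below p = 0.333.

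Of the alpha subunits, 4 of 7 had fitted values above 0 and 3 below, the median was 0.026, and 0 passed. PSMA2 had the highest fold change of the 51 genes, with 65.9 and 83.9 CPM under DMSO and 86.5 and 99.2 CPM under erianin (0.31, SE 0.14, adjusted p = 0.57). Its groups did not overlap, but the gap between the second DMSO library and the first erianin library was smaller than that between the DMSO libraries. PSMA3, which also forms part of the gate, had the lowest of the class, with 35.7 and 32.4 CPM against 32.8 and 25.0 CPM (-0.23, SE 0.16). PSMA6 had 207 and 203 CPM under DMSO and 202 and 236 CPM under erianin (0.098, SE 0.10).

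PSMA2 and PSMA6 share sequence with another gene, and their counts must be read with it. PSMA6 shares 912 nucleotides with ENSG00000258790, which is 1 of the 7 genes past the threshold. That gene had 18.5 and 9.95 CPM under DMSO and 0.864 and 0.774 CPM under erianin (log2 fold change -4.11, SE 0.34, edgeR adjusted p = 0.0127). Both erianin libraries lay far below both controls. Summed with it, PSMA6 stood at 226, 213, 203 and 237 CPM, and its fold change went from 0.098 to 0.0031. PSMA2 shares 782 nucleotides with ENSG00000256646, which had 23.8 CPM in the first DMSO library and 0.449, 1.87 and 0.270 CPM in the other 3. Only that DMSO library was high, and PSMA2 was lowest in it. The sums were 89.7, 84.4, 88.4 and 99.5 CPM, and the fold change of PSMA2 went from 0.31 to 0.11. Of the 51 genes, 23 share at least 200 nucleotides at 95% identity with another gene, and for 13 of them the other gene had at least 1% as many counts.

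In the 19S ATPase ring, whose 6 subunits PSMC1 to PSMC6 pull substrates into the core, fitted values were above 0 in 3 and below 0 in 3. The median was -0.040 and 0 of 6 passed. PSMC2 had 25.7 and 21.9 CPM under DMSO and 19.3 and 14.9 CPM under erianin. Both erianin values were below both controls (log2 fold change -0.48, SE 0.18, unadjusted p = 0.0289, adjusted p = 0.57). PSMC6 lay at the other end, with 35.2 and 37.0 CPM against 39.9 and 44.9 CPM (0.23, SE 0.13, adjusted p = 0.58), and there too the groups did not overlap. Subunits of 1 ring that enter it in equal number thus had fitted values of opposite sign, neither of which passed the test.

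The non-ATPase subunits, which bind ubiquitin, remove it and hold the cap together, had fitted values above 0 in 7 and below 0 in 6, a median of 0.023, and 0 of 13 passed. PSMD1, the large scaffold of the cap's base, had the lowest fold change of all 51 genes. It had 37.2 and 32.7 CPM under DMSO and 30.3 and 19.5 CPM under erianin (-0.49, SE 0.21, unadjusted p = 0.0478, adjusted p = 0.57). Most of this difference lay in 1 library: the first erianin library was 0.20 below the DMSO mean on the log2 scale and the second was 0.84 below it. ADRM1 had the highest fold change of the class, with 660.2 and 689 CPM under DMSO and 716 and 865 CPM under erianin (0.23, SE 0.11, adjusted p = 0.57). PSMD14, the deubiquitinase of the cap's lid, had 43.2, 39.2, 40.4 and 29.4 CPM in library order, so that the second erianin library alone was low (-0.24, SE 0.17). PSMD4, a ubiquitin receptor, had 219, 228, 235 and 257 CPM (0.14, SE 0.095).

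Among the activators and the inhibitor, 4 of 5 had fitted values above 0 and 0 passed. PSMF1, which binds the core and inhibits it in vitro, had the smallest p of the 51. It had 148 CPM in each DMSO library and 173 and 181 CPM under erianin (log2 fold change 0.26, SE 0.090, unadjusted p = 0.0214, adjusted p = 0.57). In CPM both erianin libraries stood well above both controls, and the value without either of them stayed between 0.23 and 0.28. In FPKM the groups overlapped, with 26.15 and 19.31 under DMSO and 22.12 and 30.51 under erianin. The fold change of PSMF1 was 0.20 in limma on FPKM, 0.16 with library totals alone and 0.20 by its row with the most counts. PSME4 had 12.8 and 12.6 CPM against 11.5 and 8.15 CPM (-0.37, SE 0.20). PSME1 and PSME2, which form the ring that accompanies the immunoproteasome, had fitted values of 0.073 (SE 0.089) and 0.049 (SE 0.098), and PSME1 exceeded PSME2 on the FPKM scale by 3.24-fold and 3.51-fold under DMSO and by 3.47-fold and 3.77-fold under erianin.

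The assembly factors had fitted values above 0 in 4 of 8 and below 0 in 4, with a median of -0.079, and 0 passed. PSMD10, also called gankyrin, is a chaperone of the cap's base with known effects on tumour suppressors. It had 8.89 and 8.01 CPM under DMSO and 6.17 and 6.06 CPM under erianin (-0.47, SE 0.19, unadjusted p = 0.0363, adjusted p = 0.57). Its erianin libraries lay close together and below both controls, 0.45 and 0.48 below the DMSO mean on the log2 scale. PSMG3, a chaperone of the alpha ring, had the highest fold change of the class, with 42.5 and 42.4 CPM against 40.1 and 53.9 CPM (0.15, SE 0.16). The 2 erianin libraries lay on opposite sides of the controls. POMP, which guides beta ring assembly, had 147, 138, 136 and 170 CPM in library order (0.10, SE 0.12). PSMC3IP and PSME3IP1 share only the letters of their symbols, since they are named as partners of PSMC3 and PSME3. PSMC3IP, a factor of meiotic recombination, had 6.09 and 5.48 CPM under DMSO and 5.35 and 4.98 CPM under erianin (-0.16, SE 0.21). PSME3IP1 had 67.1 and 59.1 CPM against 65.0 and 57.1 CPM (-0.047, SE 0.12).

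The spread of the fitted values followed the second erianin library. Measured against the DMSO mean, the first erianin library had a median difference of -0.0055 over the 51 genes, with 24 above and 27 below, and the second had 0.10, with 30 above and 21 below. Without the first erianin library, 21 of the 51 genes passed, 10 higher and 11 lower, where 17.5% of 18116 genes did. Among the 10 were ADRM1, POMP, PSMB5, PSMB8, PSMB9 and PSMF1, and among the 11 were PSMC1, PSMC2, PSMD1, PSMD12, PSMD14 and PSME4. That fit rests on a single erianin library, assumed to vary as the DMSO libraries do. Of the 51, 49 reached a mean log2 CPM of 3, and the share passing among genes of that level is not given here. The share over all genes is therefore not matched in level. Without the second erianin library, 0 of 51 passed, where 0.132% of 18151 genes did. PSMD1 moved from -0.49 to -0.85 without the first and to -0.21 without the second, and PSMC2 moved from -0.48 to -0.68 and -0.30. The plot of each library against the DMSO mean shows the same in all roles.

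**Figure D3:**
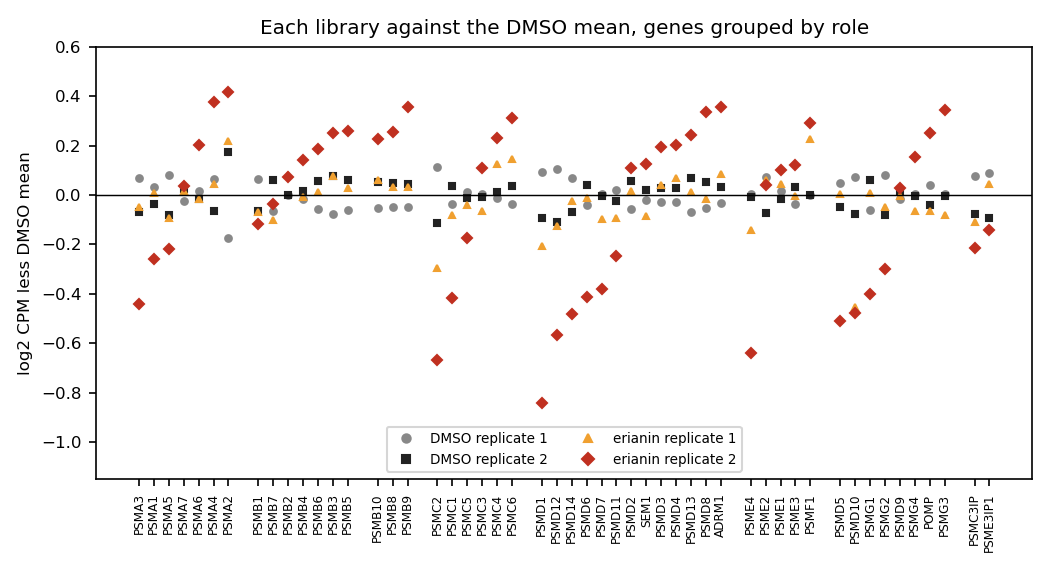
Difference of each library's log2 CPM from the average of both DMSO libraries, for each proteasome gene, grouped by role and ordered by the second erianin library. The second erianin library (red diamonds) fans out in both directions, while the first (orange triangles) mostly stays among the DMSO libraries; PSMF1 and PSMD10 are genes at which both erianin libraries lie close together and off the controls.

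The fitted values also followed base composition and level. Over the 51 genes the Spearman correlation of the log2 fold change with the GC content of the longest transcript was 0.436, and with the mean log2 CPM it was 0.641. Over 7959 genes whose mean log2 CPM reached 3 the values were 0.665 and 0.393. GC content and level were themselves related among the proteasome genes (0.561), and all points share the same 4 libraries. The difference between the 2 DMSO libraries followed GC content among them as well (0.437). In the 17 genes of highest GC content (51.9 to 64.2%), 16 had fitted values above 0 and 1, PSMG2, below 0, with a median of 0.14. In the 17 of lowest GC content (31.8 to 43.6%), 7 were above 0 and 10 below, with a median of -0.16. Beyond removal of the trend, given next, the part of GC content and level in these differences was not tested.

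With the trend in GC content and length removed through an offset, 0 of 51 passed, where 0.0293% of 17090 genes did, and the median became 0.0048, with 26 above 0 and 25 below. The 17 genes of highest and the 17 of lowest GC content then had medians of -0.0013 and 0.074. PSMD1, PSMC2 and PSMD10 moved to -0.32, -0.26 and -0.30, with unadjusted p of 0.0700, 0.0644 and 0.0892. PSMF1 moved from 0.26 to 0.40. Of low GC content, PSMA2, PSMA4, PSMC6, PSMA6 and PSMB2 moved up to 0.59, 0.50, 0.46, 0.38 and 0.31, and these 5 with PSMF1 were the genes at an unadjusted p under 0.05, where 6.48% of all genes reached that level. By role, the alpha median became 0.074, the beta median 0.051, the immunoproteasome median 0.049, the ATPase median -0.089 and the assembly median -0.038. The plot against GC content shows both sets of values.

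**Figure D4:**
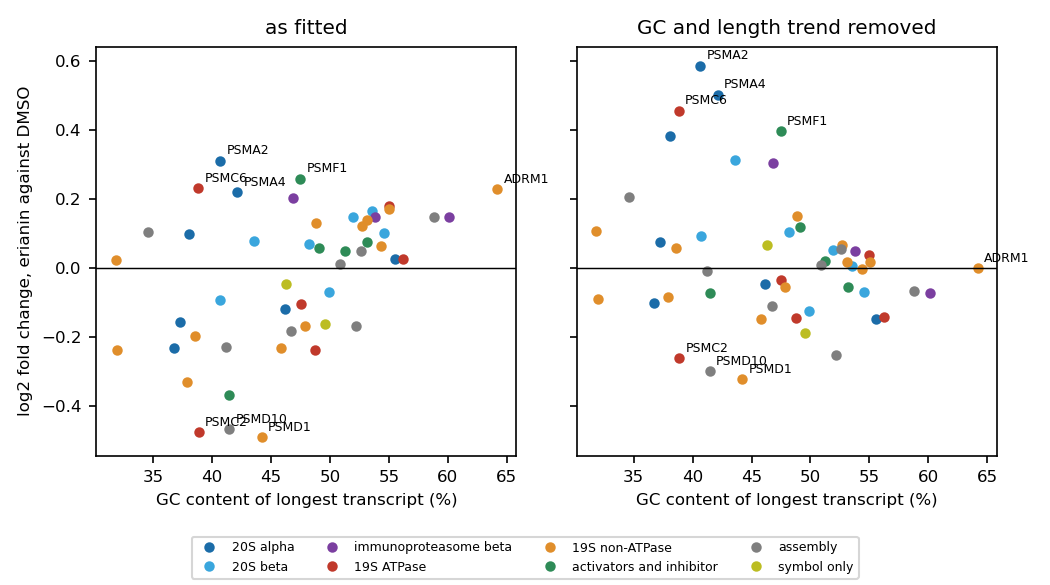
Log2 fold change of erianin against DMSO for each proteasome gene against the GC content of its longest transcript, as fitted (left) and with the trend in GC content and length removed (right), coloured by role. On the left nearly all genes above 52% GC lie above 0; on the right PSMA2, PSMA4, PSMC6 and PSMF1 lie highest and PSMD1, PSMD10 and PSMC2 lowest.

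Fold changes were also set beside the motifs of the promoters. RefSeq windows of 250 bases before to 50 after the start were matched for 45 of the 51, and were not matched for PSMA7, PSMB1, PSMB6, PSMB7, PSMD4 and PSMG3. A response element core was found in 26 of 45 (57.8%), where 42.6% of 15843 protein-coding promoters and 42.1% of all 27305 promoters held one. A CCAAT box was found in 21 (46.7%, against 36.4% and 35.7%), a GC box in 30 (66.7%, against 58.5% and 44.6%) and an ETS core in 14 (31.1%, against 14.2% and 10.7%). Genes with a response element core had a median log2 fold change of 0.059, with 16 of 26 above 0, and those without had 0.023, with 10 of 19 above 0. Genes with an ETS core had a median of -0.18, with 6 of 14 above 0. They ran from -0.48 in PSMC2 to 0.23 in PSMC6. The other 31 genes had a median of 0.063, with 20 above 0. With the trend removed these medians were -0.033 and 0.021. A match to these letters is a description and not a site of binding.

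Genes that work beside the proteasome did not pass either. There were 28 such genes, which make ubiquitin, deliver substrates, or control proteasome genes and activity. Of these, 0 had an adjusted p under 0.05, where 0.041% of all genes tested did. An unadjusted p under 0.05 was reached by 3, where 8.1% of all genes tested reached that level. Fitted values were above 0 in 10 and below 0 in 18, with a median of -0.054. NFE2L1, the regulator of subunit genes, had 409 and 431 CPM under DMSO and 419 and 410.0 CPM under erianin (-0.020, SE 0.090), and its groups overlapped. Its relative NFE2L2, the regulator of oxidative defence, had 24.7 and 22.2 CPM against 18.3 and 18.3 CPM (-0.36, SE 0.15, unadjusted p = 0.0402, adjusted p = 0.57), with both erianin libraries below both controls. UBB, which encodes ubiquitin, had a fitted value of 0.091 (SE 0.089). UCHL5, the deubiquitinase that ADRM1 holds, had 12.8 and 10.5 CPM under DMSO and 8.23 and 6.91 CPM under erianin (-0.62, SE 0.19, unadjusted p = 0.0115, adjusted p = 0.57). UBA6, an enzyme that activates ubiquitin, had 15.7 and 14.5 CPM against 12.7 and 9.47 CPM (-0.44, SE 0.19, unadjusted p = 0.0454). Both genes were lower in each erianin library than in each control, and neither passed. Against the DMSO mean, UBA6 stood at -0.25 in the first erianin library and at -0.67 in the second. With the trend in GC content and length removed, NFE2L2, UCHL5 and UBA6 moved to -0.22, -0.39 and -0.16. Their unadjusted edgeR p were then 0.104, 0.0294 and 0.241. USP14, another deubiquitinase of the cap, had a fitted value of -0.32 (SE 0.19), and VCP, the ATPase that extracts substrates, had -0.043 (SE 0.091).

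The count table holds several unnamed rows for most genes, and the division of a gene's counts between its rows was compared as well. For each pair of libraries, the share of a gene's counts that sat in different rows was computed. PSMA4, an alpha subunit, was the only proteasome gene in which every erianin library differed from every DMSO library by at least 20 percentage points more than libraries of 1 group did from each other (at least 44.4 points between groups, at most 23.7 within), where 1.02% of 9989 genes were so divided. Its second row held 0 counts in both DMSO libraries and 2950 and 2875 counts in the erianin libraries, while row 5 held 1340 and 1140 counts under DMSO and 163 and 248 under erianin. In PSMC4, an ATPase, the second row held 220 and 0 counts against 9167 and 9091, but the DMSO libraries also differed from each other, with 11967 and 3086 counts in the first row. In PSMD4 the division went with the replicate number, row 5 holding 0, 985, 0 and 2402 counts in library order. PSMC2 and POMP did likewise, with 13.0 and 7.16 points between same-numbered libraries and 62.1 and 27.4 within groups. Same-numbered libraries were closest in 20 of the 51 genes (39.2%), where 32.3% of all genes compared were so. By its row with the most counts PSMC2 had a fold change of -0.30, against -0.48 on summed counts. The row with the most counts was the same in all 4 libraries for 43 of 51 genes, against 71.8% of all genes compared. Rows carry no transcript names, so what each one stands for is not known here. The division touches levels: PSMA4 had 137, 125, 135 and 170.1 CPM in its summed counts but 131, 95.1, 86.9 and 93.0 FPKM, so its fold change was 0.22 on counts and -0.31 on the log2(FPKM + 1) scale. PSMA4 and PSMC4 were chosen for description after their values had been seen. With the gap of 20 points, PSMA4 alone made up 1.96% of the 51 genes, against 1.02% of all genes compared. Without that gap, 3 of the 51 (5.88%) were divided by group, against 7.93% of all genes compared. The plot of row shares shows PSMA4, PSMC4 and PSMD4.

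**Figure D5:**
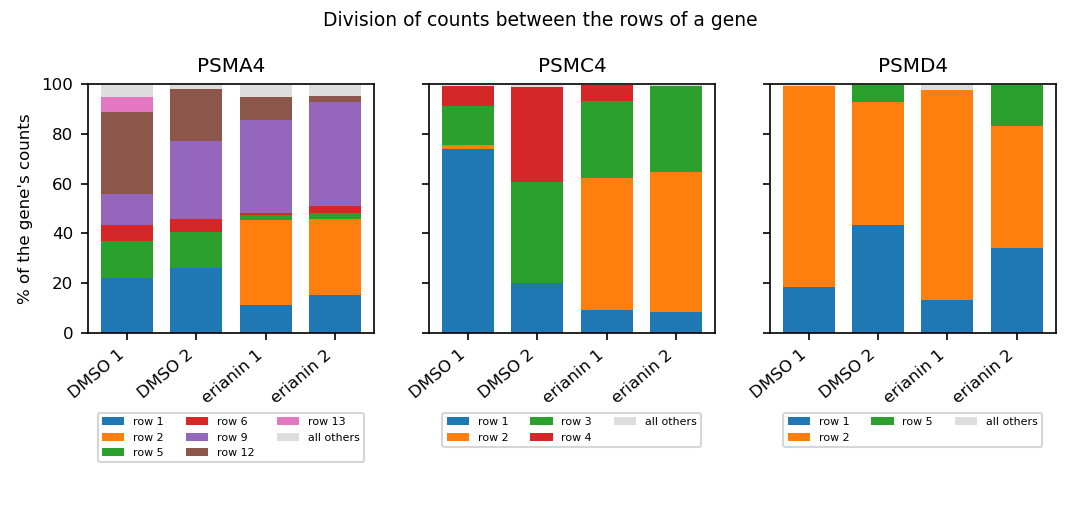
Share of the counts of PSMA4, PSMC4 and PSMD4 that each row of the count table holds in each library, in percent; rows under 5% in every library are joined as all others. The second row of PSMA4 appears only in the erianin libraries, the rows of PSMC4 also differ between the DMSO libraries, and those of PSMD4 follow the replicate number.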

How the data were processed

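RNA sequencing of SW1990 cells gave 2 libraries per group, grouped and numbered by the sample titles. Per the submitters' processing notes, fastp, STAR, StringTie 2.2.1, featureCounts 2.0.1 and build GRCh38 were used, with no role or order given. Which annotation, strand setting and treatment of multiply matching reads applied is not given in the sources used here. A count table that the authors deposited holds estimated counts, whole and unnormalized, in 107429 rows for 25798 gene IDs. Plain counts had been planned for. FPKM values come from the deposited FPKM table, per the file headers. Rows were summed per gene ID, and no column of another series was present.

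Counts were tested with edgeR 4.0.16 (R 4.3.3) by the quasi-likelihood test, with TMM factors of 0.928 to 1.04, filterByExpr at a minimum count of 10 (17090 genes tested, 8708 removed), Benjamini-Hochberg adjustment over all genes tested and a threshold of 0.05. There were 2 residual degrees of freedom, and the biological coefficient of variation was 0.233. CPM uses the TMM-adjusted totals. Fitting steps were tested on simulated data. Alternatives were DESeq2 1.42.0, limma 3.58.1 (voom, and log2(FPKM + 1)), other scalings and filters, single rows, sums with genes that share sequence (BLAST+ 2.17.0), a replicate block, each library left out, and an offset. The offset was a natural spline (5 degrees of freedom) on GC content and length of the longest GENCODE transcript. Intervals are at 95%. Promoter windows came from RefSeq.

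Genes named with values in every library were the catalytic and immunoproteasome subunits, PSMA6, any at an unadjusted p under 0.05, and the highest and lowest of each role. Further genes named were picked with their values in view. The members and lists were chosen with earlier results of these data known. One gene of the naming rule is not reported here.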

Additional observations from a re-analysis of the deposited data

How the results depend on the processing

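None of the 51 proteasome genes passed in the main test or in 18 of the 21 alternatives; the exceptions were 21 genes without erianin replicate 1, 10 with the offset as well (where 639 of 18116 genes passed), and PSMA2 alone under the offset with the replicate block (0.58). Genes passing over the whole table numbered 7, and they numbered 2 with library totals alone, 21 with DESeq2, 0 with limma-voom, 2 with FPKM in limma, and 14 to 3166 when a library was left out. Proteasome genes at an unadjusted p under 0.05 numbered 4, against 2 with FPKM in limma and 0 to 37 when a library was left out. The median of the 51 genes was 0.049. It became -0.054 with library totals alone, -0.053 with FPKM, 0.0048 with the offset, and -0.018 to 0.093 when a library was left out. Shares of passing genes at a like level are not given for the fits without a library. Nor is the share of all genes at an unadjusted p under 0.05 given for those fits. Their counts of proteasome genes at that level therefore have no comparison and cannot be read as particular to the proteasome.

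Under the replicate block, 334 genes passed over the whole table and 8 proteasome genes had an unadjusted p under 0.05. With the offset and the replicate block together the counts were 21 and 10, with a median of 0.0052. The share of all genes at an unadjusted p under 0.05 with the block is not given here, so neither count of members has a comparison. Same-numbered libraries deviated together with a correlation of 0.223 over 7977 genes (0.123 with the trend removed), but 2 pairs share only a number and no pairing is stated.

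Of the 21 named genes, 9 kept their sign under all 21 alternatives. With the offset the sign turned, without and with the replicate block, for ADRM1 (-0.0013 and -0.0010), PSMB1 (0.091 and 0.090), PSMB6 (-0.0697 and -0.070), PSMB10 (-0.074 and -0.074), PSME3IP1 (0.066 and 0.067) and PSMG3 (-0.067 and -0.069). Other turns were PSMA6 with library totals alone (-0.0058), PSMC3IP summed with genes that share sequence (0.028), PSME3IP1 on FPKM (0.26) and PSMG3 by its largest row (-0.013). Leaving out a library, without or with the offset, gave ranges that crossed 0 for ADRM1 (-0.028 to 0.35), PSMA3 (-0.45 to 0.054), PSMA6 (-0.016 to 0.61), PSMB1 (-0.16 to 0.15), PSMB3 (-0.049 to 0.24), PSMB6 (-0.12 to 0.18), PSMB8 (-0.026 to 0.25), PSMB10 (-0.13 to 0.22), PSME3IP1 (-0.15 to 0.14), PSME4 (-0.65 to 0.0046) and PSMG3 (-0.17 to 0.34). The cause was not tested. A fit that leaves 1 library in a group assumes that it varies like the other group.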

Other observations

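Noncoding and pseudogene relatives of the proteasome genes were left out above and are given here as values. PSMA3-AS1, the antisense partner of PSMA3, had 4.35 and 5.35 CPM under DMSO and 3.64 and 2.79 CPM under erianin (log2 fold change -0.59, SE 0.26, edgeR unadjusted p = 0.0516, adjusted p = 0.57), so both erianin libraries lay below both controls. PSMG3-AS1 had 3.82 and 3.96 CPM against 4.33 and 5.72 CPM (0.37, SE 0.24), with both erianin libraries above. PSMB8-AS1 had 1.35, 1.49, 1.22 and 0.594 CPM in library order (-0.64, SE 0.46). None of the 3 passed. The counting is not stated to use strand, so reads of a gene and its antisense partner cannot be told apart. The other relatives were near the limit of counting: 7 pseudogenes and PSMD6-AS2 were removed by the filter, and PSMA6P1 and PSMC1P1, at 1.66 to 2.78 CPM, had fitted values of -0.34 and 0.12.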
